A study of Mus musculus with 8 samples.

Results

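The brush border peptidases are the enzymes that stud the luminal membrane of the proximal tubule and split filtered peptides. They were represented here by 9 genes: Ggt1, Dpep1, Anpep, Enpep, Mme, Ace, Mep1a, Mep1b and Dpp4. Members were taken by name, as every probe whose transcript accession maps to 1 of these symbols, which gave 9 of the 20659 genes with a probe and 10 of the 39429 probes. Mme had 2 probes and each other gene 1. Of the 9 genes, 7 had signal enough to be tested, among 14476 genes tested in all. The cells were primary cultures of kidney proximal tubule cells of male C57/BJ mice aged 6 weeks, grown to confluence from trypsin-digested cortex. In serum-free medium for 24 h, 4 samples received the vehicle DMSO and 4 received 1 uM GW4064, a synthetic agonist of the bile acid receptor FXR. Such a pellet consists mostly, not wholly, of tubules, and it is not labelled whether replicates were independent cultures. The p-values therefore reflect the spread among the arrays alone, and that spread may be technical.

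The brush border works as a digestive surface. Ggt1 and Dpep1 take glutathione apart outside the cell, one removing the glutamyl residue and the other splitting the dipeptide that remains, so that the amino acids can be taken up again. Anpep, Enpep and Dpp4 trim peptides from the amino end, Ace removes dipeptides from the carboxyl end, and Mme and the meprins Mep1a and Mep1b cut inside the chain. Several of them also process signals: Ace makes angiotensin II, Enpep and Mme degrade angiotensins, and Dpp4 inactivates incretins.

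The members divided by direction. With GW4064, Ace, Anpep and Ggt1 rose (3.11-fold, 2.96-fold and 1.82-fold), Enpep and Mme fell (1.26-fold and 1.21-fold lower), and Mep1a and Dpp4 did not pass the test. Thus 3 of 7 tested members were higher, where 11.8% of all genes tested were, and 2 of 7 were lower, where 8.95% of all genes were. The median log2 fold change of the 7 was 0.36, against 0.015 over all genes. The test was limma, with p-values adjusted by Benjamini-Hochberg over all 14476 genes and a threshold of 0.05; 20.8% of genes passed in either direction. The arrays of the groups did not overlap for 5 of 7 members, where 26.2% of all genes had no overlap. Slc51a and Slc51b, bile acid exporters known as FXR targets, rose in the same cultures by 6.91 ± 0.16 and 3.40 ± 0.07 (SE) on the log2 scale. Fabp6, which binds bile acids inside ileal cells, was well above background on 4 GW4064 arrays and 0 DMSO arrays. It entered the test through the GW4064 arrays alone. Its fold was 62.0 against a floor for DMSO: the array's lowest signal counted as above background, or the probe's own value where higher. After normexp, another background correction, its log2 difference was 3.35 (limma adjusted p = 0.140).

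All values are log2 of the background-subtracted spot signal minus the 75th percentile of that signal on the same array, so that 0 is the 75th percentile; the level of 1 probe cannot be set against that of another. That percentile was 1478 to 1900 signal units with DMSO and 1203 to 1697 with GW4064, and on each array between 61.4% and 65.7% of probes stood well above background. The arrays lay on 2 slides, each with 2 samples of either group. DMSO samples always took the first 2 places of a slide, so place and treatment cannot be told apart.

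**Figure D1:**
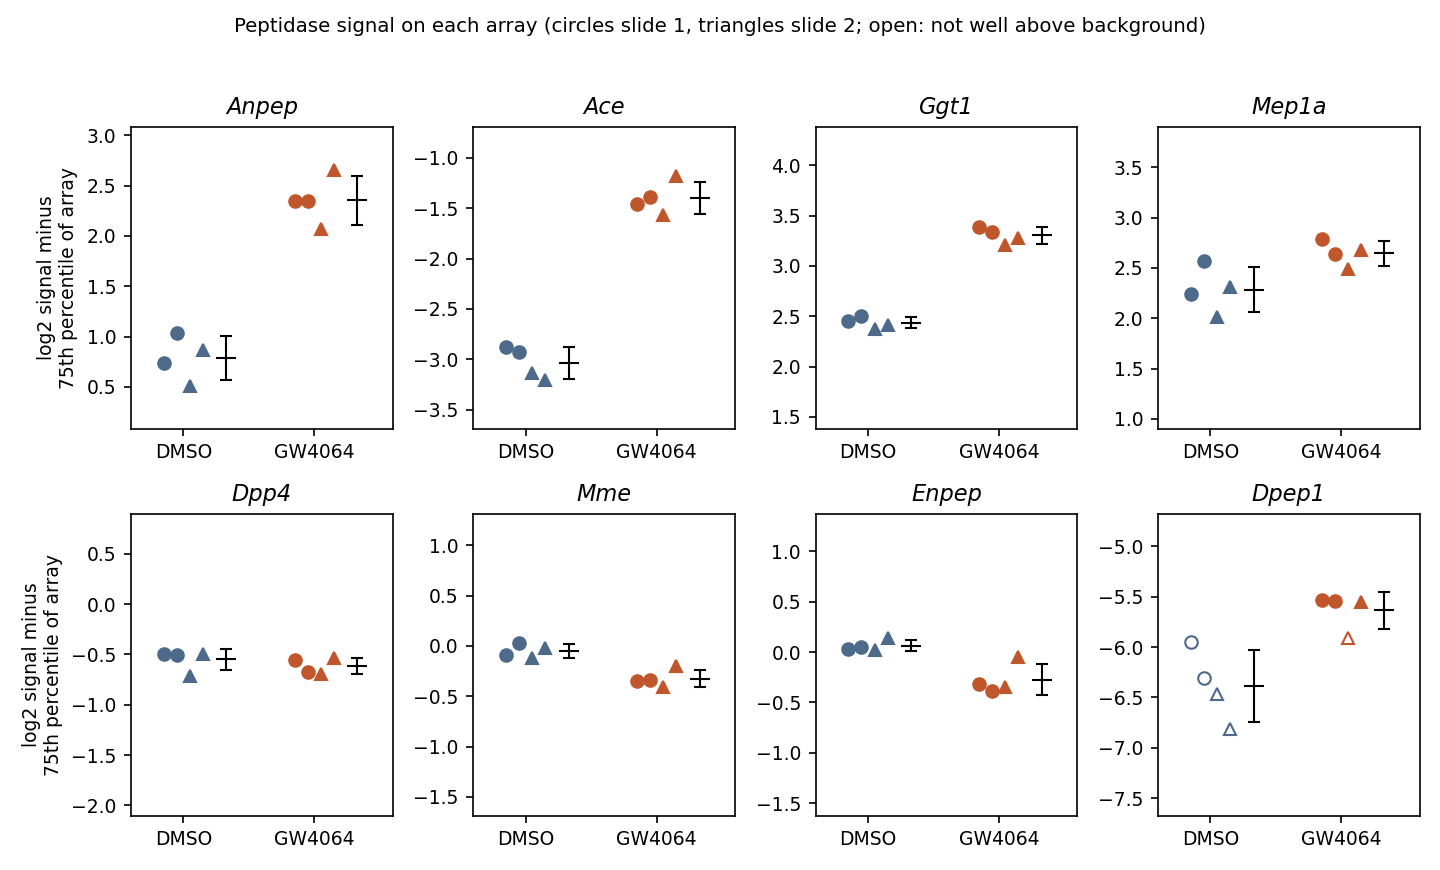
Each panel plots 1 gene; the vertical axis, 3 log2 units in every panel, is the log2 signal minus the array's 75th percentile, each point is 1 array (4 per group), and the bars are mean ± SD. The groups do not overlap for Anpep, Ace, Ggt1, Mme and Enpep, overlap for Mep1a and Dpp4, and Dpep1 was well above background (filled) on 3 GW4064 arrays and on none with DMSO.

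The promoters of the 3 genes that rose are shown because these members moved together. The 250 bases before the annotated start are from RefSeq (GRCm38.p6), 5′ to 3′ on the strand of the gene. Ace is the first of 2 listed starts, at chr11:105967698-105967947 on the plus strand. Anpep is its single listed start, at chr7:79848211-79848460 on the minus strand. Ggt1 is the first of 4 listed starts, at chr10:75563882-75564131 on the plus strand. Capitals mark matches to the nuclear receptor half-site or the HNF4 core described next.
Ace: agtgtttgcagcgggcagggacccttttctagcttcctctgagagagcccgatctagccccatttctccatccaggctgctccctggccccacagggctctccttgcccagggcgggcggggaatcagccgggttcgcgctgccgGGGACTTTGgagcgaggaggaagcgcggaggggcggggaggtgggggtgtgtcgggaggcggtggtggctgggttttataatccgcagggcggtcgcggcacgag
Anpep: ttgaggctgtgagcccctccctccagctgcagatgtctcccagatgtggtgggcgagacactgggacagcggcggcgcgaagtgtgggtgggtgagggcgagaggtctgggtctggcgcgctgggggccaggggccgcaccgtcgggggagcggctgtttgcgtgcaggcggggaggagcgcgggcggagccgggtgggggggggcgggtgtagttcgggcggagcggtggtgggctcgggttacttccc
Ggt1: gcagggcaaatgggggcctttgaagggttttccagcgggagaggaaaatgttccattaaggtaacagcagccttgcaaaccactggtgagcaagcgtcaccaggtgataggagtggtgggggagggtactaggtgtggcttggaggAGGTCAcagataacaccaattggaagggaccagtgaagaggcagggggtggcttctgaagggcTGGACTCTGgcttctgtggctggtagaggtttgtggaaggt
Windows of 250 bases before to 50 after the start were searched on both strands at 14 listed starts of 8 member genes. The FXR inverted repeat, AGGTCA and its reverse complement TGACCT with 1 base of any kind between them, allowing up to 2 mismatches, was found in 0 of the 14 and in 1.14% of all 32851 promoters of that length. The half-site AGGTCA alone, which lies within the repeat and was searched with no mismatch, was found in 2 of the 14, the first Ggt1 start and the second Ace start, and in 16.3% of all promoters. The HNF4 core CAAAGTCCA, with at most 1 mismatch, was found in 4 of the 14 and in 8.47% of all promoters. Those 4 were starts of Ace, Mep1a and, at 2 starts, Ggt1. Ggt1 gave 4 of the 14 windows and Mme 3, some of which overlap, so the 14 are not independent. The HNF1 palindrome, GTTAAT and ATTAAC with 1 base of any kind between them, allowing up to 2 mismatches, was found in 0 of the 14 and in 1.36% of all promoters. These are matches of letters, not measured binding, and which start the array probe of a gene reads was not examined. The Ace and Anpep windows had 69.7% and 72.3% G and C, higher than in 89.9% and 93.5% of promoters, and the Ggt1 window 54.3%.

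Glutathione breakdown starts with Ggt1, gamma-glutamyltransferase. Its values were 2.45, 2.50, 2.37 and 2.42 with DMSO and 3.39, 3.34, 3.20 and 3.27 with GW4064. Every GW4064 array lay above every DMSO array, and the spread within each group was small. The means were 2.44 ± 0.05 and 3.30 ± 0.08 (SD, n = 4 each). The log2 difference was 0.87 ± 0.05 (SE; 95% interval 0.75 to 0.98; limma adjusted p = 1.78e-05). It was 0.89 on slide 1 and 0.84 on slide 2, and it passed on each slide alone.

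Dpep1, the dipeptidase that follows Ggt1, was near the limit of the array. With DMSO the values were -5.95, -6.31, -6.46 and -6.82, none of them well above background. With GW4064 they were -5.53, -5.54, -5.91 and -5.55, and all but the third, replicate 3, were well above background. Against the floor used for Fabp6, Dpep1 was about 1.5-fold higher with GW4064. DMSO arrays took the lowest signal that counted as above background, or the probe's own value where higher. GW4064 took the mean of all 4 arrays, replicate 3 included. That lowest signal belongs to the whole array, not to this probe, so 1.5-fold is an estimate and not a strict minimum. The measured means were -6.38 ± 0.36 and -5.64 ± 0.19 (SD, n = 4 each). With 3 of 8 arrays above background it did not enter the test.

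The inside of the gamma-glutamyl cycle, in which the cell rebuilds glutathione, is covered by a list of 7 genes, all tested. Of these, 2 rose, 1 fell and 4 did not pass, where 11.8% of all genes rose and 8.95% fell. The median log2 difference was 0.03. Gclm, the modifier subunit of the enzyme that limits glutathione synthesis, rose 2.46-fold (1.30 ± 0.07 log2, SE). Gss, glutathione synthetase, rose 1.29-fold (0.37 ± 0.07). Oplah, which opens the 5-oxoproline ring at the end of the cycle, was 1.19-fold lower (-0.25 ± 0.05). The limma adjusted p was 7.94e-06, 0.0077 and 0.0111 for Gclm, Gss and Oplah. Gclc, the other subunit of the limiting enzyme and named after its values were seen, did not pass (-0.21 ± 0.08, limma adjusted p = 0.0996).

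Anpep, aminopeptidase N, removes neutral residues from the amino end of peptides. Its values were 0.73, 1.03, 0.51 and 0.87 with DMSO and 2.34, 2.34, 2.07 and 2.66 with GW4064. The lowest GW4064 array stood above the highest DMSO array by more than the spread within either group. The means were 0.79 ± 0.22 and 2.35 ± 0.24 (SD, n = 4 each), a log2 difference of 1.57 ± 0.14 (SE; 95% interval 1.24 to 1.89; limma adjusted p = 0.000175). The difference was 1.46 on slide 1 and 1.67 on slide 2, where alone it missed the threshold (adjusted p = 0.0592).

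Enpep, aminopeptidase A, removes acidic residues and turns angiotensin II into angiotensin III. Its values were 0.032, 0.053, 0.023 and 0.14 with DMSO and -0.31, -0.39, -0.35 and -0.051 with GW4064. GW4064 replicate 4 came closest to the DMSO arrays, but the groups did not overlap. The means were 0.06 ± 0.05 and -0.28 ± 0.15 (SD, n = 4 each). The log2 difference was -0.34 ± 0.08 (SE; 95% interval -0.51 to -0.17; limma adjusted p = 0.0155). It was -0.40 on slide 1 and -0.28 on slide 2 (adjusted p = 0.352 there).

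Dpp4, dipeptidyl peptidase 4, had values of -0.49, -0.50, -0.71 and -0.49 with DMSO and -0.56, -0.67, -0.69 and -0.54 with GW4064. The groups overlapped. The means were -0.55 ± 0.11 and -0.62 ± 0.08 (SD, n = 4 each). The log2 difference of -0.07 ± 0.06 (SE; limma adjusted p = 0.511) had a 95% interval of -0.21 to 0.08, which excludes a change of the size seen for Ace, Anpep or Ggt1 but not a small one.

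Ace, the angiotensin-converting enzyme, changed 3.11-fold. Its values were -2.88, -2.93, -3.14 and -3.20 with DMSO and -1.46, -1.39, -1.57 and -1.18 with GW4064. All 4 GW4064 arrays lay more than 1 log2 unit above the DMSO arrays. The means were -3.04 ± 0.16 and -1.40 ± 0.16 (SD, n = 4 each). The log2 difference was 1.64 ± 0.10 (SE; 95% interval 1.41 to 1.87; limma adjusted p = 2.51e-05), 1.48 on slide 1 and 1.80 on slide 2. Starting instead from raw spot and local background signals with normexp correction, it was 0.88 ± 0.43 (SE), below those of Anpep and Ggt1, and did not pass (adjusted p = 0.641). Ace and Anpep, which both changed at least 2-fold, were 2 of 7 members; 0.988% of all genes tested rose by as much and passed. None of the 7 fell 2-fold, where 0.311% of all genes did.

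Ace is also made by endothelium, and the signal comes from RNA of the whole culture. There, a change in the number of cells of a type and a change in RNA per cell cannot be told apart. Of 8 tested endothelial markers 4 rose and 0 fell, and 1 listed marker, Tek, was not well above background on any array. The summed signal of the tested markers, in multiples of the 75th percentile, was 5.31 to 6.23 with DMSO and 6.13 to 6.90 with GW4064. That sum weighs most on the brightest, Egfl7 and Kdr (DMSO means 1.61 and 0.91), named after their values were seen. Neither passed (limma adjusted p = 0.408 and 0.391), so the sum says little of the 4 that rose. The part of endothelial cells in the Ace result was not tested.

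Mme, neprilysin, cuts many small peptides, enkephalins and natriuretic peptides among them. Its brighter probe read -0.091, 0.034, -0.12 and -0.023 with DMSO and -0.35, -0.34, -0.41 and -0.20 with GW4064. The groups lay close together without overlapping. The means were -0.05 ± 0.07 and -0.32 ± 0.09 (SD, n = 4 each). The log2 difference was -0.27 ± 0.06 (SE; 95% interval -0.40 to -0.15; limma adjusted p = 0.0107). The other Mme probe gave -0.51, -0.41, -0.51 and -0.52 with DMSO against -0.76, -0.90, -0.95 and -0.71, so both probes went down. In a fit across all probes its log2 difference was -0.34 ± 0.06 (SE; limma adjusted p = 0.0088). The brighter probe's difference was -0.32 on slide 1 and -0.23 on slide 2, and passed on neither slide alone (adjusted p = 0.0757 and 0.340).

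Mep1a, the alpha subunit of the meprin metalloproteases, had values of 2.24, 2.57, 2.02 and 2.31 with DMSO and 2.79, 2.64, 2.49 and 2.68 with GW4064. GW4064 replicate 3 lay below DMSO replicate 2, so the groups overlapped. The means were 2.28 ± 0.23 and 2.65 ± 0.12 (SD, n = 4 each). The log2 difference was 0.36 ± 0.11 (SE; 95% interval 0.10 to 0.62; limma adjusted p = 0.0555). With slide as a block the adjusted p was 0.0428, and without DMSO replicate 2 the difference was 0.46 with an adjusted p of 0.0181. In 16 of 21 alternatives it did not pass, with a limma adjusted p of up to 0.648. The difference was 0.31 on slide 1 and 0.42 on slide 2. The beta subunit, Mep1b, exceeded background clearly on 0 of 8 arrays and has no fold here.

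**Figure D2:**
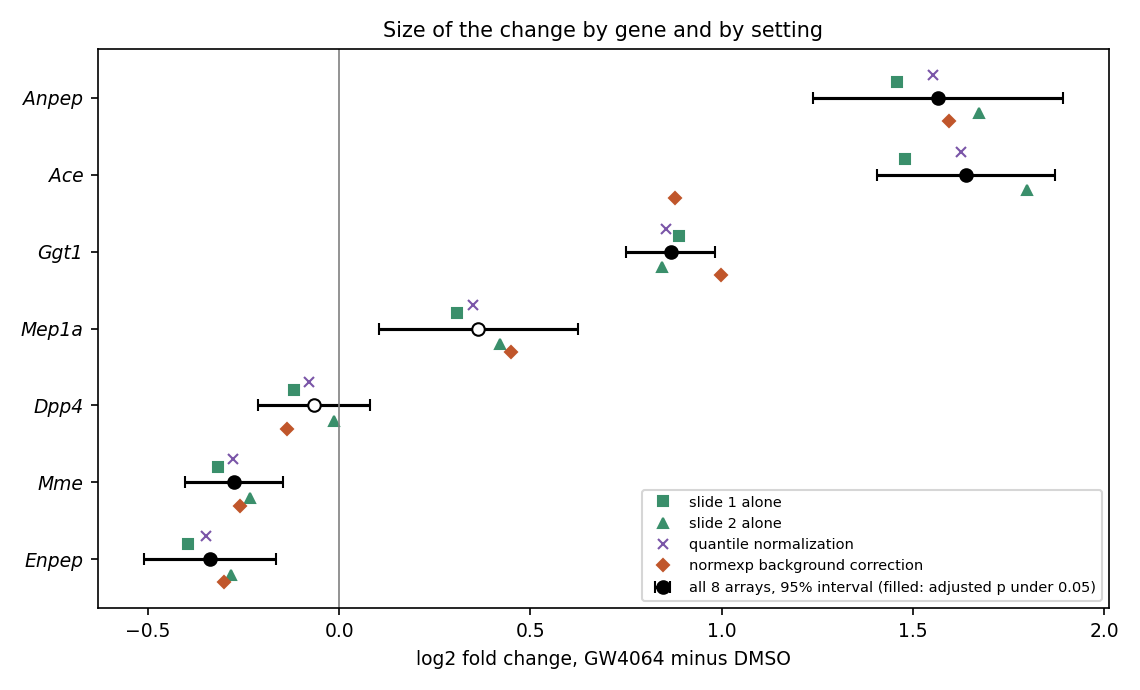
Points and bars give the log2 fold change (GW4064 minus DMSO) of each tested gene with its 95% interval, filled where the adjusted p was under 0.05; the other symbols give the same difference within each slide and after quantile normalization and after normexp correction. All values of a gene keep its sign; after normexp correction Ace (0.88) falls below its interval of 1.41 to 1.87 and Ggt1 (0.999) above its own of 0.75 to 0.98.

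With slide as a block, the adjusted p of the 5 members that passed was at most 0.0183 in limma. The difference between slides in the GW4064 effect, tested as an interaction, had an unadjusted p of at least 0.114 and an adjusted p of at least 0.991 for each of the 7. Across all genes that interaction passed for 0 genes in limma, with 542 at an unadjusted p under 0.05. The 5 members also passed without any 1 of the 8 arrays.

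**Figure D3:**
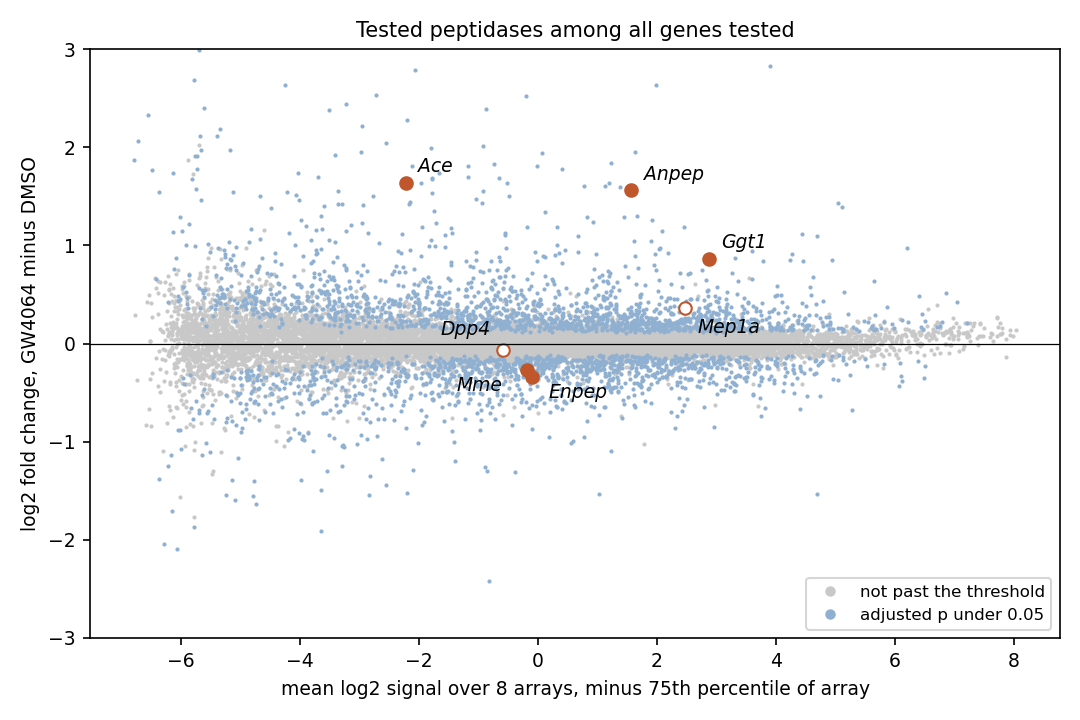
Each dot is 1 of 14476 genes, with its mean log2 signal minus the 75th percentile on the horizontal axis and its log2 fold change (GW4064 minus DMSO) on the vertical axis; 11 genes lie beyond the plotted range of -3 to 3. Ace and Anpep stand at 1.64 and 1.57 and Ggt1 at 0.87, whereas Mme and Enpep lie at -0.27 and -0.34.

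Other peptidases of the cell surface also included genes called in both directions. Of 20 listed genes 12 were tested, 3 rose, 2 fell and 7 did not pass, with a median log2 difference of -0.022. The shares over all genes tested were 11.8% higher and 8.95% lower. Xpnpep2, the membrane-bound aminopeptidase P, was not well above background with DMSO (-6.53, -6.35, -6.22 and -6.70) but was on all 4 GW4064 arrays (-4.25, -4.21, -4.35 and -4.52). Against the same kind of floor, Xpnpep2 was about 3.71-fold higher. It entered the test through the GW4064 arrays alone, so its fitted means of -6.45 and -4.33 and its adjusted p in limma (8.41e-06) set a signal against background, as does its place among the 3 that rose. After normexp correction its log2 difference was 0.068 (adjusted p = 0.961).

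Ggt6, a relative of Ggt1, rose 1.37-fold (0.45 ± 0.04), and Adam10, the shedding protease, was 1.17-fold lower (-0.22 ± 0.04). Folh1, a glutamate carboxypeptidase, was 1.43-fold lower (-0.51 ± 0.11 log2, SE; limma adjusted p = 0.0137). Cpm, a carboxypeptidase named after its values were seen, was 1.25-fold higher (0.33 ± 0.09; limma adjusted p = 0.0365). It lost its call without any 1 of 5 arrays, DMSO replicates 1, 2 and 4 and GW4064 replicates 1 and 2 (adjusted p up to 0.0952). Dpep2, Naalad2, Naaladl1, Mmel1, Ece2 and Trhde were well above background on 0 of 8 arrays, and Dpep3 and Phex on 1.

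Ace, Enpep and Mme act on the renin-angiotensin and kinin system. Of 13 other genes listed with it, 8 were tested: 0 rose, 3 fell and 5 did not pass, with a median of -0.22. Among all genes tested 11.8% rose and 8.95% fell. The 5, named after their values were seen, were Agt (-0.09), Ren1 (0.14), Agtr1a (0.24), Atp6ap2 (-0.06) and Kng1 (-0.35). Their limma adjusted p was 0.0755 or more. Of the 3 that fell, Klk1 and Kng2 lost their calls when single arrays were left out, as given next. Cltrn, collectrin, a membrane protein that carries amino acid transporters to the brush border, read 2.72, 2.70, 2.27 and 2.65 with DMSO and 1.90, 1.84, 1.70 and 2.11 with GW4064. It was 1.62-fold lower (-0.70 ± 0.12 log2, SE; limma adjusted p = 0.0050), with no overlap between groups. Klk1, tissue kallikrein, was 1.54-fold lower (-0.63 ± 0.16) and Kng2, a kininogen, 1.40-fold lower (-0.48 ± 0.14). Both lie near the threshold (limma adjusted p = 0.0270 and 0.0467). Klk1 lost its call without DMSO replicate 1, 3 or 4 or GW4064 replicate 4 (adjusted p up to 0.0712). Kng2 lost its call without DMSO replicate 1, 2 or 4 or GW4064 replicate 1, 3 or 4 (adjusted p up to 0.113). Klk1, which distal nephron segments make, also lost its call with the replicate number as a block (adjusted p = 0.0895). The receptors Agtr1b, Agtr2, Mas1, Bdkrb1 and Bdkrb2 were well above background on 0 of 8 arrays.

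Peptides taken up are broken down in the cytosol and in lysosomes. Of 18 listed genes, all tested, 3 rose, 1 fell and 14 did not pass, with a median of 0.07. Among all genes tested 11.8% rose and 8.95% fell. Cndp1, a carnosine dipeptidase, was well above background on every GW4064 array and no DMSO array. Against the same kind of floor it was about 1.48-fold higher (measured means -7.75 and -5.69, limma adjusted p = 0.0018). It too entered the test, and the count of 3, through the GW4064 arrays alone, and its DMSO values are background. After normexp correction its log2 difference was -0.36 (adjusted p = 0.786). Cndp2, the cytosolic dipeptidase that splits cysteinylglycine, rose 1.23-fold (0.30 ± 0.05 log2, SE) and Npepps, a cytosolic aminopeptidase, was 1.18-fold lower (-0.24 ± 0.04). Rnpep, aminopeptidase B, was 1.09-fold higher (0.12 ± 0.03; limma adjusted p = 0.0368), and it lost its call when any 1 of the DMSO replicates 1 to 4 or GW4064 replicates 1 to 3 was left out (adjusted p up to 0.100).

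Of the 4 peptide transporters, 3 were tested, 1 rose and 2 did not pass, where 11.8% of all genes tested rose. Slc15a3, a lysosomal transporter, was 1.23-fold higher (0.30 ± 0.08 log2, SE; limma adjusted p = 0.0341). It lost its call without DMSO replicate 2, 3 or 4 or GW4064 replicate 1, 2 or 3 (adjusted p up to 0.0820), and with slide as a block (0.0504). Slc15a1, the intestinal and renal transporter PEPT1, was well above background on 0 of 8 arrays. Over the 5 lists, 16 of 48 tested genes passed, 9 higher and 7 lower, where 20.8% of all genes passed. The 9 include Xpnpep2 and Cndp1, which entered the test through the GW4064 arrays alone. When probes had to exceed background on all 8 arrays, 14 of 45 passed.

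**Figure D4:**
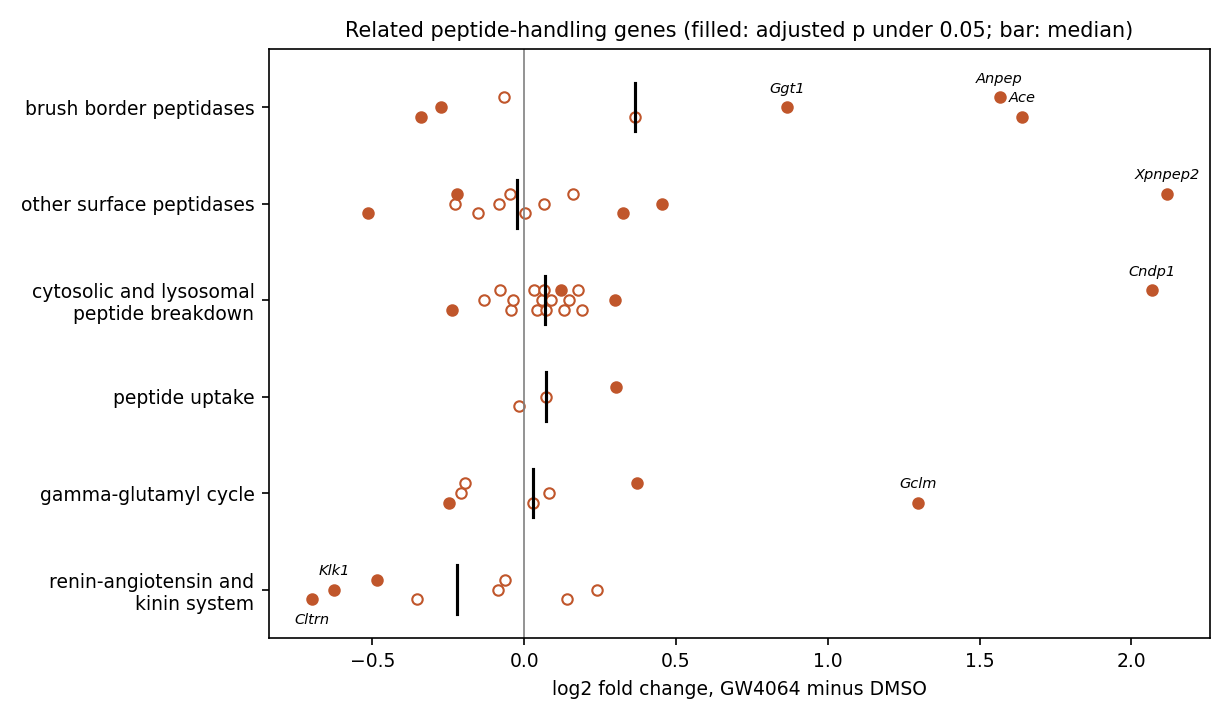
Each circle is 1 tested gene, placed by its log2 fold change (GW4064 minus DMSO) and filled where the adjusted p was under 0.05; the bar is the median of its list, and genes past 0.55 in size are named. The 7 tested brush border peptidases run from -0.34 to 1.64, and of the other lists only surface peptidases, peptide breakdown and the gamma-glutamyl cycle hold genes above 0.55.

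Genes were also ranked by how closely their profile over the 8 arrays followed that of a member, as the mean absolute difference of centred log2 values. The 2 nearest to Ggt1 were Cyp4a12b, a fatty acid hydroxylase (0.029), and Hnf4a, an epithelial transcription factor (0.033), which rose 1.80-fold. Olfml1 was nearest to Ace (0.090) and second to Anpep (0.097). The nearest to Anpep was Acsm1, a medium-chain acyl-CoA synthetase (0.093), and the second to Ace was the xenobiotic receptor Nr1i2 (0.10). Atxn3 (0.029) and Fut8 (0.031) were nearest to Mme, and Myc (0.028) and Pdgfd (0.035) to Enpep. Closeness over arrays of 2 groups mostly reflects a like difference between the groups.

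Markers of the cultured cells were read beside these results, and their counts stand against 11.8% of all genes tested that rose and 8.95% that fell. Of 14 tested proximal tubule markers 9 rose and 0 fell, and their summed signal was 80.1 to 98.7 with DMSO and 115 to 134 with GW4064; all 15 listed were well above background on some array. Fibroblast and pericyte markers, of which 3 of 9 rose and 0 fell, summed to 57.7 to 73.8 and 79.0 to 95.7, with Lum at background on every array. Leukocyte and macrophage markers, of which 3 of 9 rose and 0 fell, summed to 11.0 to 12.4 and 14.2 to 16.4. Markers of other nephron segments and podocytes, of which 0 of 8 rose and 2 fell, summed to 5.30 to 6.86 and 5.66 to 7.16. Each sum weighs most on its brightest probes and is not the level of a cell type. Named after their values were seen, Csf1r (means 2.38 with DMSO and 3.13 with GW4064) and Itgam (2.34 and 2.38) were brightest among leukocyte markers. Tagln (4.88 and 5.41), Col1a2 (4.02 and 4.21) and Acta2 (3.84 and 4.33) were brightest among fibroblast markers. Of these, Csf1r, Tagln and Acta2 passed. Podocytes, fibroblasts and leukocytes make some of Mme, Enpep, Anpep and Dpp4, and the part of these cells in the members' values was not tested.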

How the data were processed

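Each array was a one-colour Agilent gene expression array of 1 sample. Deposited values are the intensity of each spot after subtraction of background; per the file headers this was done by Feature Extraction, version 10.7.3.1. Version 10.7 of that software and limma appear in the submitters' processing notes. The authors also deposited a table of log2 values whose scale and centring are not stated. Every column had a median of 6.598 and correlated at 0.9996 or more with its own array, and its sorted values differed between columns by at most 0.01, so it held log2 signals brought to a common distribution, without centring of genes; it served as an alternative.

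Control spots (1377 of 44397) and spots marked as outliers (98 to 174 per array) were left out, and spots of a probe were averaged on the log2 scale. A probe was kept if well above background on at least 4 of 8 arrays and not wholly marked on any (85 probes were), which left 24723. Accessions were matched without versions to the RefSeq gene table of GRCm38.p6, which named 27234 of 39429 probes (69.1%). The brightest kept probe stood for a gene. The file headers name build mm9, and the only coordinates given are those of RefSeq promoters in GRCm38.p6. GW4064 was set against DMSO without covariates by lmFit and eBayes of limma 3.58.1 (R 4.3.3), in a script tested on simulated data. Normexp (offset 50) used median spot signals, since the files hold no mean signal. The number of arrays limits the precision.

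The members and lists were chosen with earlier results of these data known. The genes named are the 9 members, up to 4 called genes of each related list with the smallest p, the 2 nearest profiles of each called member, and Slc51a, Slc51b and Fabp6; others are said to be named after their values were seen. An item of the lists is not reported here. Marker lists are given by counts and summed signal, and some also by their brightest members.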

Additional observations from a re-analysis of the deposited data

Results flagged for a closer look

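In 70 groups of 4 arrays examined, 6 had 1 array apart from the other 3 by Dixon's criterion; chance gives about 1 in 20. DMSO replicate 3 was low for Dpp4 (-0.712) and for Cltrn (2.27). DMSO replicate 2 was high for the dimmer Mme probe (-0.411). GW4064 replicate 3 was low for Dpep1 (-5.91), Acsm1 (-0.54) and Nr1i2 (-1.14). Values are on the percentile-scaled log2 scale used above.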

How the results depend on the processing

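Under 21 alternatives no tested brush border peptidase changed sign. Apart from normexp correction, the log2 fold changes ran from 1.48 to 1.80 for Ace, 1.46 to 1.67 for Anpep, 0.84 to 0.90 for Ggt1, 0.28 to 0.46 for Mep1a, -0.12 to -0.013 for Dpp4, -0.32 to -0.23 for Mme and -0.41 to -0.28 for Enpep. After normexp correction 119 genes, 2 members (Anpep and Ggt1) and 1 of the 48 tested related genes passed, against 3006, 5 and 16; Ace was then at 0.88, Enpep at -0.30 and Mme at -0.26, none past the threshold, and Cndp1 (-0.36) and Slc15a3 (-0.46) turned sign. The cause was not tested. Slide 1 alone, with 2 arrays a group, called 966 genes, 5 related genes and 4 members, with Mme at -0.32 not passing. Slide 2 alone called 220 genes, 2 related genes and 2 members, with Anpep at 1.67, Enpep at -0.28 and Mme at -0.23 not passing. Mep1a, at 0.36, passed when probes had to exceed background on all 8 arrays (adjusted p = 0.0475), with slide as a block (0.0428), with a trended robust fit (0.0404) and with the replicate number as a block (0.0482). Leaving out 1 array gave 2076 to 2827 genes, 5 or 6 members, 11 to 17 related genes, and for Mep1a 0.28 to 0.46 with an adjusted p from 0.0181 to 0.131. With the replicate block 2322 genes and 6 members passed; deviations of same-numbered samples correlated at -0.131, -0.029, 0.192 and -0.022 across genes, and only DMSO replicate 3 correlated best with its own number, so the numbers were not taken to pair the samples. Quantile normalization put 50.7% of called genes higher, against 56.9%. For the other 28 genes named, 476 values kept the call, 2 turned sign and the rest lost the call. The 28 leave out Gclc, the cell type markers named with the sums, and the renin-angiotensin and kinin genes that did not pass. Spots near background limit Dpep1, Mep1b, Xpnpep2, Cndp1 and Fabp6.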
